A study of Homo sapiens with 12 samples.

Results

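The cholesterol and fatty acid synthesis genes examined here are 35 human genes whose products make sterols and fatty acids, control that synthesis, or move the products, and all 35 were found among the named loci of the deposited expression table. They were measured by mRNA sequencing in HCT116 cells, a human colorectal carcinoma line with epithelial features. The cells received an NSE4A-flag plasmid (NSE4 cells), an SMC5-flag plasmid (SMC5 cells) or a control plasmid (GFP cells, which the sample titles call GFP and the design text calls vector). A day later each transfected culture was divided, and the portions were given 1000 nM doxorubicin or PBS for 24 h. That made 6 groups of 2 libraries, written NSE4-DOX, SMC5-DOX and GFP-DOX for the doxorubicin groups and NSE4, SMC5 and GFP for the PBS groups. All cells are described as wild type, all were transfected, and the labels name no promoter, clone or selection for the plasmids. NSE4A and SMC5 are subunits of the SMC5/6 complex, a ring-shaped ATPase that acts in DNA repair, and doxorubicin intercalates into DNA and traps topoisomerase II. The study asked how this complex affects growth and doxorubicin-induced death of colon cancer cells.

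Animal cells build cholesterol from acetyl-CoA by way of mevalonate, isoprenoid diphosphates, squalene and lanosterol. The genes are controlled together by the membrane-bound transcription factors SREBP-1 and SREBP-2, the products of SREBF1 and SREBF2. When sterol is plentiful, INSIG proteins hold SREBP and its escort SCAP in the endoplasmic reticulum, and when sterol runs low SCAP carries SREBP to the Golgi, where it is cut and freed to enter the nucleus. SREBP binds sterol regulatory elements in promoters, usually beside sites for NF-Y, which recognises CCAAT. SREBP-1 favours fatty acid genes and SREBP-2 sterol genes, while LXR, a nuclear receptor for oxysterols, drives the export pump ABCA1.

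Members were matched by name, also where a locus carries several gene names. A total of 37 loci name a member, since INSIG1 is named by 3, and 36 of them passed a filter of at least 1 FPKM (fragments scaled to transcript length and library size) in at least 2 of the 12 columns. Those 36 loci cover all 35 genes and lie among 16026 loci that passed, of 57908 in the table. The locus left out was the faintest INSIG1 locus, at 0.124 to 0.7001 FPKM. Of the 36 loci 30 name no second protein-coding gene. The other 6 join a member with a neighbour (FADS2 with FEN1, TM7SF2 with VPS51, MVD with CYBA, FASN with CCDC57, CYP51A1 with LRRD1, and EBP with PORCN), and in these the member's own level cannot be told apart from its neighbour's.

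The 2 SMC5-DOX columns stood apart from the other pairs: their Pearson r on the log2(FPKM + 1) scale was 0.99943, with 1091 identical values above 0, against an r of 0.98682 to 0.98805 and 0 identical values in the other 5 pairs. Only 7 loci were above 0 in 1 of these columns alone, against 4216 to 5291 loci in the other pairs. The SMC5-DOX columns may be 1 library, although single loci differed between them (MVD had 514 and 622 FPKM). They were therefore averaged and counted as 1 sample, and SMC5-DOX values carry no SD. Estimated depth was 13.3 to 19.3 M (1e6) fragments per library. The NSMCE4A locus, which encodes NSE4A, reached 4069 to 6287 FPKM in cells given its plasmid, against 32.6 to 89.4 FPKM elsewhere, and the SMC5 locus 772 to 979 FPKM against 7.02 to 34.4 FPKM. CDKN1A, a p53 target induced by doxorubicin, stood at 906 to 1131 FPKM in doxorubicin libraries and at 292 to 359 FPKM in PBS libraries. Of 8 colorectal epithelial markers, EPCAM stood at 120 to 146 FPKM and KRT8 at 1205 to 1799 FPKM, whereas the enterocyte genes VIL1 (0.00654 to 2.43 FPKM) and CDH17 (0.157 to 1.80 FPKM) were low. Of these markers VIL1 was at 1.20 to 2.43 FPKM with doxorubicin and 0.00654 to 0.141 FPKM without it, and KRT8 at 1501 to 1799 FPKM with it and 1205 to 1364 FPKM without it. KRT18, in contrast, was at 391.9 to 472 FPKM with doxorubicin and 604 to 694 FPKM without it, and EPCAM at 120 to 128.8 FPKM with it and 129.0 to 146 FPKM without it. None of 4 hepatocyte markers passed 0.494 FPKM, and the summed hepatocyte markers were at 0.397 to 0.726 FPKM with doxorubicin and 0.190 to 0.681 FPKM without it. The summed leukocyte markers were at 112 to 127 FPKM with doxorubicin and 85.2 to 99.2 FPKM without it, nearly all from a locus that joins CD14 with NDUFA2, and PTPRC, the pan-leukocyte marker, did not pass 0.0378 FPKM. The sums of 4 fibroblast markers were 16.1 to 27.8 FPKM with doxorubicin and 18.0 to 25.6 FPKM without it. Nearly all of this came from COL1A1, at 15.6 to 27.0 FPKM with doxorubicin and 17.7 to 25.2 FPKM without it. PDGFRB stood at 0.424 to 1.21 FPKM with doxorubicin and 0.0131 to 0.158 FPKM without it. COL3A1, in contrast, stood at 0.0113 to 0.130 FPKM with doxorubicin and 0.0599 to 0.382 FPKM without it. DCN did not pass 0.189 FPKM with doxorubicin and was listed at 0 in every PBS library. The part of these markers in the results below was not tested.

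Doxorubicin lowered most of the sterol and fatty acid synthesis loci in each of the 3 transfected backgrounds. In GFP cells 23 of 36 loci fell and 3 rose, at an adjusted p under 0.05 in limma, with Benjamini-Hochberg adjustment over all 16026 loci. The share that fell was 63.9%, against 13.8% of all loci tested, and 16.9% of all loci rose. In NSE4 cells 22 fell and 2 rose, a share of 61.1% that fell against 13.9% of all loci, with 16.5% of all loci called as rising. In SMC5 cells 21 fell and 2 rose, a share of 58.3% against 9.89% of all loci, with 12.1% rising. The same 21 loci fell in all 3 backgrounds, and 10 passed the test in none. A fit of the SMC5-DOX and SMC5 libraries alone, with fewer samples to estimate the spread, made no call at any locus tested, members included. In bulk RNA, fewer cells that express a gene and less RNA per cell cannot be told apart. FPKM is scaled to library size, so these falls are in a locus's share of the library, and total RNA per cell is not given.

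The median log2 change of the 36 loci was −0.87 in GFP cells, −0.77 in NSE4 cells and −0.75 in SMC5 cells, where the medians over all loci tested were 0.02, 0.03 and 0.02. A fall of at least 1 log2 unit, which on this scale is a halving of FPKM + 1, was found for 13 of the 36 loci (36.1%) in each background, against 2.82%, 2.69% and 2.77% of all loci. All 6 doxorubicin columns lay below all 6 PBS columns at 22 of the 36 loci, against 17.9% of all loci tested, and above them at 4, against 21.3% of all loci. Across the 36 loci the log2 changes in NSE4 and GFP cells, which share no library, had a Pearson r of 0.965, given as a description over genes that are not independent. The labels do not state whether libraries of 1 group are separate cultures, and the p-values therefore rest on a spread that may be technical only.

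**Figure D1:**
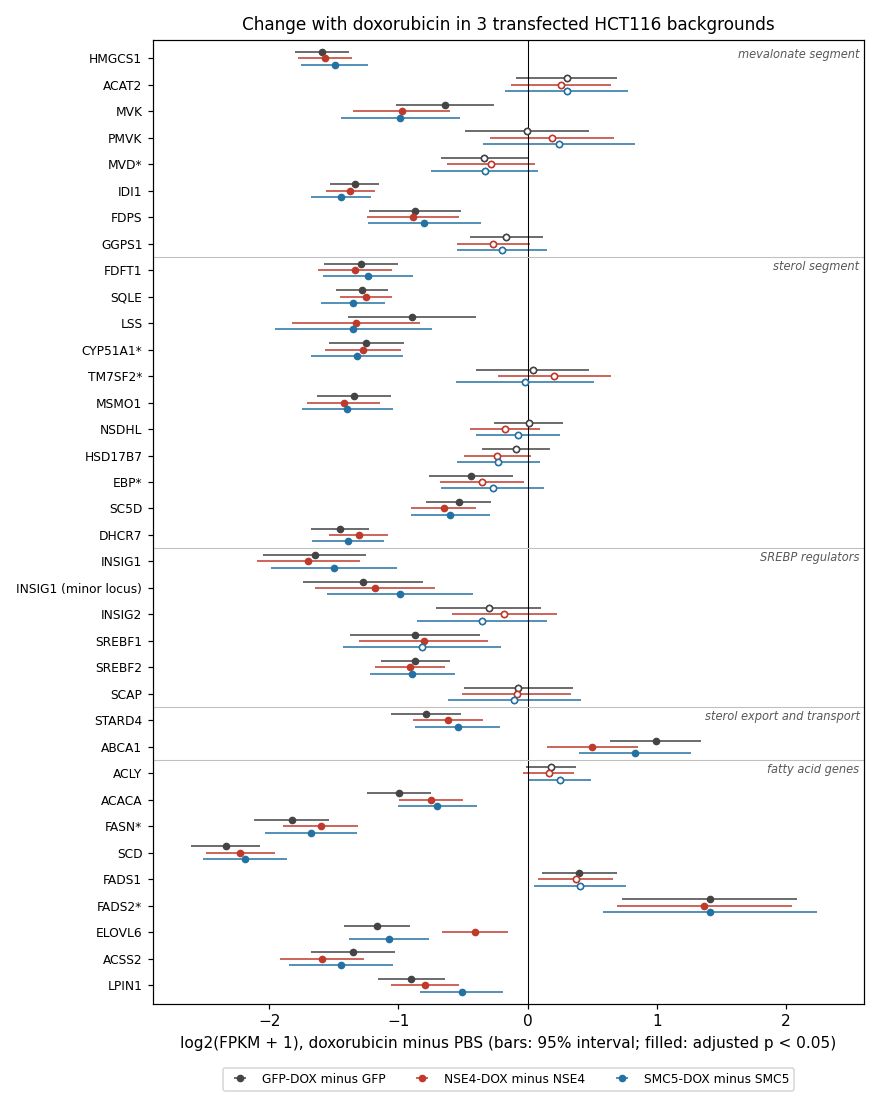
Change with doxorubicin for the 36 loci, by role, as the difference in log2(FPKM + 1) with its 95% interval (horizontal axis) in GFP, NSE4 and SMC5 cells; filled points passed an adjusted p of 0.05 and an asterisk marks a locus shared with another coding gene. Most points lie left of 0, with SCD farthest at −2.34 in GFP cells, and the red NSE4 point of ELOVL6 (−0.41) stands apart from the other backgrounds' points.

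Promoter sequences were read to show the letters through which SREBP and NF-Y are known to act. RefSeq promoters (assembly GRCh38.p14) were matched by symbol for 31 of the 35 genes, with 46 start sites, and the 250 bases before each start were searched on both strands. The sterol regulatory element was searched as TCACNCCAC, and, because that was found at 1 of the 46 start sites, also as its core CACNCCAC, which the longer form contains. The NF-Y box was searched as CCAAT and the E-box, another SREBP-binding form, as CACGTG. The core was found at 7 of 46 start sites (15.2%), against 4.87% of the 35116 promoters in the table, and CCAAT at 25 of 46 (54.3%), against 32.0%. The E-box was found at 5 of 46 (10.9%), against 6.34%. These start sites belong to 4 genes (12.9% of member genes, against 7.73% of all genes), as overlapping SC5D windows hold the same E-box. Overlapping windows of SC5D and of ACLY also count the same CCAAT boxes again, so start sites of 1 gene are not independent. Over the 15140 promoters of expressed coding genes the shares were 4.92% for the core, 32.7% for CCAAT and 8.12% for the E-box. A match is a run of letters in this window, not evidence of binding, and no match says only that these letters are absent from these 250 bases.

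The 7 genes with a core match were SREBF2, INSIG1, SCD, IDI1, SC5D, ACACA and ABCA1. Of the 19 matched genes that fell in GFP cells 6 held the core, and of the 9 that were not called 0 did. The remaining gene with a core match, ABCA1, rose in GFP cells, as did FADS1 and FADS2, which held no core. CCAAT was present in 15 of the 19 genes that fell and in 6 of the 9 that were not called. Over all 27305 genes with a promoter sequence, 5.89% held the core and 37.0% held CCAAT at a start site. IDI1, ACACA and SC5D held the core at only 1 of their several listed starts, and more listed starts give more chances of a match. With 9 genes, 0 matches cannot be told apart from a share of 5.89%. Shown here are the 250 bases before the start of 5 genes that fell in all 3 backgrounds and of NSDHL, a sterol enzyme that was called in none, each 5′ to 3′ on the gene's own strand. Capitals mark the core or full sterol regulatory element and the CCAAT box, on either strand (ATTGG is CCAAT read from the other strand). SREBF2 lies on the plus strand (chr22:41832855-41833104), as do INSIG1 (chr7:155297628-155297877), SCD (chr10:100346983-100347232), MSMO1 (chr4:165327419-165327668) and NSDHL (chrX:152830813-152831062), and HMGCS1 on the minus strand (chr5:43313413-43313662).
SREBF2: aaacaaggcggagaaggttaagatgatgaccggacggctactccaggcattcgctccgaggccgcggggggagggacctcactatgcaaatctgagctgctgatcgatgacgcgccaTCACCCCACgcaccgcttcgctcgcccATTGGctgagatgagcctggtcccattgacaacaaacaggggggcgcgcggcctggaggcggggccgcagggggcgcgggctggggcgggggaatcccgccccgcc
INSIG1: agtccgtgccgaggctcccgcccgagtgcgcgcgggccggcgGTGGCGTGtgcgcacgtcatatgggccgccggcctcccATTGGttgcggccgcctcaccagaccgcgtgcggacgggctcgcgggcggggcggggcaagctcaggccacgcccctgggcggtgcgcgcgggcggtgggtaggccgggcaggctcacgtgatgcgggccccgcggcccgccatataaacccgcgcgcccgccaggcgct
SCD: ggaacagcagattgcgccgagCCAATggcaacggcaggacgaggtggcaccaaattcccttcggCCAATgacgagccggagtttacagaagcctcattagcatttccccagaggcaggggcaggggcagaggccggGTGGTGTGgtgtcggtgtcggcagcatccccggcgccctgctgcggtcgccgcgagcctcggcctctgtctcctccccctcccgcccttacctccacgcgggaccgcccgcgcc
HMGCS1: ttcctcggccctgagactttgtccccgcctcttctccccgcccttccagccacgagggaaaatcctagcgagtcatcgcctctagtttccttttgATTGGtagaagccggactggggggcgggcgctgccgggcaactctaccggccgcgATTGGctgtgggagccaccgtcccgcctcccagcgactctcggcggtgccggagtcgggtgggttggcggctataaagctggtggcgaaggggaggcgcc
MSMO1: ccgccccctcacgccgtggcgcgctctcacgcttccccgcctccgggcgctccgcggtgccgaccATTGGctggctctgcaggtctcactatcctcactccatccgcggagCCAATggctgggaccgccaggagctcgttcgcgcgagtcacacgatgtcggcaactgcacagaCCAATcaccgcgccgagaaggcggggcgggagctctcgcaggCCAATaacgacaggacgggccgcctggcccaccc
NSDHL: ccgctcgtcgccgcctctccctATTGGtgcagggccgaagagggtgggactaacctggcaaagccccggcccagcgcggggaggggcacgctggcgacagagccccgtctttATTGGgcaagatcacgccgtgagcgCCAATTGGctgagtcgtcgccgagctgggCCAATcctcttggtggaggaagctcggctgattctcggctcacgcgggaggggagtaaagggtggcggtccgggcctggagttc
The SREBF2 promoter held the only full-length match among the 46, TCACCCCAC, with its first base 133 bases before the start and a CCAAT box 106 bases before it. INSIG1 had a core match 208 bases and a CCAAT box 170 bases before the start, and an E-box, not capitalised, at 55. SCD had a core match at 114 bases and CCAAT boxes at 229 and 186. HMGCS1, from the upstream one of its 2 listed starts, and MSMO1 showed 2 and 4 CCAAT boxes and no core. NSDHL, which was not called, had 5 CCAAT matches, of which the pair at 113 and 110 bases overlap as a palindrome, and no core.

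Genes of the mevalonate segment, which turns acetyl-CoA into farnesyl and geranylgeranyl diphosphate, divided evenly. Of 8 loci 4 fell (HMGCS1, MVK, IDI1 and FDPS) and 4 were not called, in each of the 3 backgrounds. The share of all loci that fell was 13.8% in GFP cells, 13.9% in NSE4 cells and 9.89% in SMC5 cells. HMGCS1, which makes HMG-CoA, had 42.7 and 39.04 FPKM in GFP-DOX cells, against 123 and 128 FPKM in GFP cells. HMGCS1 stood at 37.4 and 42.9 FPKM in NSE4-DOX cells, against 121 and 120 FPKM in NSE4 cells. HMGCS1 values were 42.5 and 41.1 FPKM in SMC5-DOX cells, against 125 and 115 FPKM in SMC5 cells. No doxorubicin library came near a PBS library, and about 1 in 3 of the PBS level remained, 32.6% in GFP cells and 34.97% in SMC5 cells. The log2 change was −1.59 in GFP cells, −1.57 in NSE4 cells and −1.49 in SMC5 cells (SE 0.0898 to 0.110, adjusted p 0.000136 to 0.000407). IDI1, the isomerase of isopentenyl diphosphate, had 44.3 and 40.2 FPKM in GFP-DOX cells, against 103 and 113 FPKM in GFP cells. IDI1 stood at 40.8 and 43.2 FPKM in NSE4-DOX cells, against 111 and 110 FPKM in NSE4 cells. IDI1 values were 40.1 and 39.6 FPKM in SMC5-DOX cells, against 113 and 108 FPKM in SMC5 cells. Its groups did not overlap either, and its log2 change was −1.34 in GFP cells, −1.37 in NSE4 cells and −1.44 in SMC5 cells (SE 0.0805 to 0.0986, adjusted p 0.000145 to 0.000331).

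FDPS, the farnesyl diphosphate synthase, kept 54.2 to 57.2% of its PBS level: it averaged 94.0 ± 12.03 FPKM in GFP-DOX cells and 172 ± 16.5 FPKM in GFP cells (SD, n = 2 each). The FDPS log2 change was −0.87 in GFP cells, −0.89 in NSE4 cells and −0.80 in SMC5 cells (SE 0.152 to 0.186, adjusted p 0.00560 to 0.0239). The call of FDPS in SMC5 cells was lost without SMC5 replicate 1 (adjusted p = 0.0665) or SMC5 replicate 2 (0.0841), and that in NSE4 cells with the compared groups alone (0.0520). MVK, mevalonate kinase, averaged 15.4 ± 1.67 FPKM in GFP-DOX cells and 24.4 ± 0.939 FPKM in GFP cells (SD, n = 2 each). The MVK log2 change was −0.64 in GFP cells, −0.98 in NSE4 cells and −0.99 in SMC5 cells (SE 0.161 to 0.197, adjusted p 0.00490 to 0.0231). In GFP cells that call was lost without GFP replicate 1 (0.0759), GFP replicate 2 (0.103), GFP-DOX replicate 1 (0.109) or GFP-DOX replicate 2 (0.0524), and in SMC5 cells without SMC5 replicate 2 (0.0585). It was also lost in GFP cells with no filter (0.0510) and in NSE4 cells with the compared groups alone (0.0585).

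The steps around these did not pass the test. ACAT2, the cytosolic thiolase that joins acetyl-CoA units ahead of HMGCS1, averaged 20.2 ± 4.09 FPKM in GFP-DOX cells and 16.1 ± 1.04 FPKM in GFP cells (SD, n = 2 each), with a log2 change of 0.30 in GFP cells, 0.26 in NSE4 cells and 0.30 in SMC5 cells. PMVK, phosphomevalonate kinase, differed by −0.00, 0.19 and 0.24 log2 units in the same order of backgrounds. For both genes every estimate but that of PMVK in GFP cells was above 0, and all 95% intervals included 0. The MVD locus, which also holds CYBA, stood at 465 to 622 FPKM with doxorubicin and 591 to 741 FPKM with PBS, and its log2 change of −0.33 in GFP cells had a 95% interval of −0.67 to 0.00. GGPS1, which makes geranylgeranyl diphosphate for protein prenylation, had log2 differences of −0.16, −0.27 and −0.20 in GFP, NSE4 and SMC5 cells.

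In the sterol segment, which runs from farnesyl diphosphate through squalene to cholesterol, 8 of 11 loci fell in GFP cells and 7 of 11 in NSE4 and in SMC5 cells. Among all loci tested 13.8% fell in GFP cells, 13.9% in NSE4 cells and 9.89% in SMC5 cells. DHCR7, the reductase that makes cholesterol from 7-dehydrocholesterol, had 45.2 and 46.5 FPKM in GFP-DOX cells, against 122 and 133 FPKM in GFP cells. DHCR7 stood at 47.9 and 52.3 FPKM in NSE4-DOX cells, against 116 and 136 FPKM in NSE4 cells. DHCR7 values were 47.1 and 52.3 FPKM in SMC5-DOX cells, against 129 and 135 FPKM in SMC5 cells. The doxorubicin and PBS libraries did not overlap, and the log2 change was −1.45 in GFP cells, −1.31 in NSE4 cells and −1.39 in SMC5 cells (SE 0.0967 to 0.118, adjusted p 0.000185 to 0.000627). MSMO1, which removes methyl groups from the sterol ring, had 54.2 and 45.9 FPKM in GFP-DOX cells, against 129 and 128 FPKM in GFP cells. MSMO1 stood at 51.2 and 54.0 FPKM in NSE4-DOX cells, against 157 and 130 FPKM in NSE4 cells. MSMO1 values were 55.9 and 51.0 FPKM in SMC5-DOX cells, against 151 and 134 FPKM in SMC5 cells. Here too every doxorubicin value lay below every PBS value, with a log2 change of −1.35 in GFP cells, −1.43 in NSE4 cells and −1.40 in SMC5 cells (SE 0.121 to 0.148, adjusted p 0.000400 to 0.00139).

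The enzymes that open the sterol segment fell by similar amounts. FDFT1, squalene synthase, averaged 81.0 ± 4.73 FPKM in GFP-DOX cells and 201 ± 28.2 FPKM in GFP cells (SD, n = 2 each). The FDFT1 log2 change was −1.29 in GFP cells, −1.33 in NSE4 cells and −1.24 in SMC5 cells (SE 0.122 to 0.149, adjusted p 0.000523 to 0.00229). SQLE, squalene epoxidase, averaged 21.3 ± 1.14 FPKM in GFP-DOX cells and 53.1 ± 3.496 FPKM in GFP cells (SD, n = 2 each). The SQLE log2 change was −1.28 in GFP cells, −1.25 in NSE4 cells and −1.35 in SMC5 cells (SE 0.0848 to 0.104, adjusted p 0.000184 to 0.000448). The doxorubicin level of both was 38.1 to 42.2% of the PBS level in every background. The locus of CYP51A1, the lanosterol demethylase, which also holds LRRD1, averaged 25.5 ± 3.32 FPKM in GFP-DOX cells and 61.7 ± 4.73 FPKM in GFP cells (SD, n = 2 each). The CYP51A1 log2 change was −1.25 in GFP cells, −1.28 in NSE4 cells and −1.32 in SMC5 cells (SE 0.124 to 0.151, adjusted p 0.000654 to 0.00185).

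LSS, which cyclises epoxidised squalene to lanosterol, varied most between backgrounds in this segment. It had 32.6 and 36.3 FPKM in GFP-DOX cells, against 64.5 and 65.4 FPKM in GFP cells. LSS stood at 20.1 and 27.2 FPKM in NSE4-DOX cells, against 58.5 and 62.2 FPKM in NSE4 cells. LSS values were 22.5 and 27.0 FPKM in SMC5-DOX cells, against 52.0 and 80.3 FPKM in SMC5 cells. The doxorubicin values of GFP cells lay above those of NSE4 and SMC5 cells, although all doxorubicin values lay below all PBS values. The log2 change was −0.90 in GFP cells, −1.33 in NSE4 cells and −1.35 in SMC5 cells (SE 0.211 to 0.258, adjusted p 0.00430 to 0.0181), and the interaction, a direct test of the difference in change, passed for neither plasmid (adjusted p = 1.0 for both, limma). In GFP cells the call was lost without GFP replicate 1 (0.0735), GFP replicate 2 (0.0782), GFP-DOX replicate 1 (0.0841) or GFP-DOX replicate 2 (0.0605).

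SC5D and the EBP locus had smaller changes. SC5D, the sterol C5 desaturase, averaged 26.3 ± 3.29 FPKM in GFP-DOX cells and 38.4 ± 1.12 FPKM in GFP cells (SD, n = 2 each). The SC5D log2 change was −0.53 in GFP cells, −0.65 in NSE4 cells and −0.60 in SMC5 cells (SE 0.106 to 0.130, adjusted p 0.00483 to 0.0195). Its call was lost in GFP cells without GFP replicate 2 (0.0568) or GFP-DOX replicate 2 (0.0504) or with the compared groups alone (0.0576), and in SMC5 cells without SMC5 replicate 1 (0.0752). The EBP locus (a sterol isomerase, shared with PORCN) was called in GFP cells, with a log2 change of −0.44 in GFP cells (SE 0.138, adjusted p = 0.0483), against −0.36 in NSE4 cells and −0.27 in SMC5 cells. That call was lost without any of the 4 GFP and GFP-DOX libraries (0.0844 to 0.192), without NSE4-DOX replicate 1 or 2 (0.0755 and 0.0754), without SMC5 replicate 1 or 2 (0.0526 for each), with no filter (0.0972) and with the compared groups alone (0.0542).

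NSDHL, a demethylating dehydrogenase that works with MSMO1, had 22.3 and 23.1 FPKM in GFP-DOX cells, against 22.6 and 22.5 FPKM in GFP cells. NSDHL stood at 18.4 and 20.3 FPKM in NSE4-DOX cells, against 19.6 and 24.6 FPKM in NSE4 cells. NSDHL values were 20.3 and 21.8 FPKM in SMC5-DOX cells, against 22.7 and 21.7 FPKM in SMC5 cells. The groups overlapped, and the log2 change was 0.01 in GFP cells with a 95% interval of −0.26 to 0.28. HSD17B7, the ketoreductase of the same demethylation, had log2 differences of −0.09, −0.23 and −0.23 in GFP, NSE4 and SMC5 cells and was not called. The TM7SF2 locus, a sterol C14 reductase gene joined with VPS51, had 0.04, 0.21 and −0.02 and was not called. Summed over the 15 mevalonate and sterol loci that hold 1 coding gene, expression came to 550 and 586 FPKM in GFP-DOX cells against 1112 and 1205 in GFP cells. The sum was 520 and 598 FPKM in NSE4-DOX cells against 1157 and 1204 in NSE4 cells, and 549 and 583 FPKM in SMC5-DOX cells against 1167 and 1191 in SMC5 cells. The sums with doxorubicin stayed below those with PBS in every library.

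**Figure D2:**
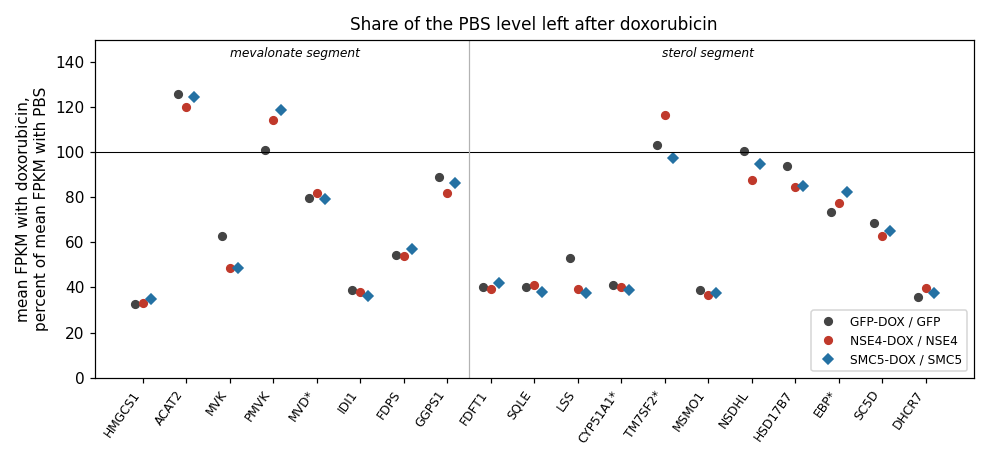
Mean FPKM with doxorubicin as a percentage of mean FPKM with PBS (vertical axis, linear) in GFP, NSE4 and SMC5 cells. The 19 loci of the mevalonate and sterol segments stand in rough pathway order, with HMGCS1 drawn before ACAT2. Points are ratios of group means, without error bars, and an asterisk marks a shared locus. HMGCS1, IDI1, FDFT1, SQLE, CYP51A1, MSMO1 and DHCR7 lie between 32.6% and 42.2%, while ACAT2, PMVK, TM7SF2 and NSDHL lie between 87.5% and 126%.

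Among the regulators of SREBP, the INSIG1 and SREBF2 loci fell in all 3 backgrounds, and INSIG2 and SCAP were called in none. INSIG1, which retains SCAP and is itself an SREBP target, had at its main locus 46.1 and 39.9 FPKM in GFP-DOX cells, against 121 and 154 FPKM in GFP cells. INSIG1 stood at 38.1 and 51.3 FPKM in NSE4-DOX cells, against 155 and 137 FPKM in NSE4 cells. INSIG1 values were 48.9 and 50.6 FPKM in SMC5-DOX cells, against 141 and 144 FPKM in SMC5 cells. The doxorubicin libraries reached at most 51.3 FPKM and the PBS libraries started at 121 FPKM, with a log2 change of −1.65 in GFP cells, −1.70 in NSE4 cells and −1.498 in SMC5 cells (SE 0.169 to 0.207, adjusted p 0.000721 to 0.00362). A second INSIG1 locus of low level, 1.503 to 2.23 FPKM with doxorubicin and 4.43 to 6.65 FPKM with PBS, fell by 1.27 on the log2 scale in GFP cells, 1.18 in NSE4 cells and 0.99 in SMC5 cells. Its call in SMC5 cells was lost without SMC5 replicate 1 (adjusted p = 0.0817) or SMC5 replicate 2 (0.0895), and with no filter (0.05655). INSIG2, the second retention protein, had log2 differences of −0.30, −0.18 and −0.35 in GFP, NSE4 and SMC5 cells, and SCAP had −0.07, −0.09 and −0.10.

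SREBF2, whose product drives sterol synthesis, had 47.1 and 49.5 FPKM in GFP-DOX cells, against 85.4 and 92.7 FPKM in GFP cells. SREBF2 stood at 42.9 and 54.6 FPKM in NSE4-DOX cells, against 90.0 and 93.8 FPKM in NSE4 cells. SREBF2 values were 44.5 and 50.4 FPKM in SMC5-DOX cells, against 87.3 and 90.7 FPKM in SMC5 cells. Every doxorubicin value was lower than every PBS value, and 53.1 to 54.2% of the PBS level remained. The log2 change was −0.87 in GFP cells, −0.91 in NSE4 cells and −0.89 in SMC5 cells (SE 0.114 to 0.140, adjusted p 0.00169 to 0.00580). SREBF1, whose product drives fatty acid synthesis, averaged 77.1 ± 13.6 FPKM in GFP-DOX cells and 142 ± 27.1 FPKM in GFP cells (SD, n = 2 each), with a log2 change of −0.87 in GFP cells (SE 0.212, adjusted p = 0.0206) and −0.81 in NSE4 cells (SE 0.212, adjusted p = 0.0280). In SMC5 cells its change of −0.82 did not pass (adjusted p = 0.0638), although all 6 doxorubicin columns lay below all 6 PBS columns. The SREBF1 call was lost in GFP cells without GFP replicate 2 (0.111) or GFP-DOX replicate 1 (0.103), and in NSE4 cells without NSE4 replicate 1 (0.0894), NSE4 replicate 2 (0.101) or NSE4-DOX replicate 1 (0.134). It was also lost with no filter (0.0523 in GFP cells and 0.0679 in NSE4 cells) and with the compared groups alone (0.0660 and 0.0809).

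The 2 genes of sterol movement went in opposite directions. ABCA1, the pump that exports cholesterol to apolipoproteins, had 2.65 and 2.27 FPKM in GFP-DOX cells, against 0.975 and 0.526 FPKM in GFP cells. ABCA1 stood at 1.98 and 2.06 FPKM in NSE4-DOX cells, against 1.20 and 1.08 FPKM in NSE4 cells. ABCA1 values were 2.70 and 2.51 FPKM in SMC5-DOX cells, against 1.000 and 1.05 FPKM in SMC5 cells. Its level was low throughout, yet all doxorubicin values lay above all PBS values. It rose by 0.99 in GFP cells, 0.50 in NSE4 cells and 0.83 in SMC5 cells (SE 0.150 to 0.183, adjusted p 0.00346 to 0.0421) on the log2(FPKM + 1) scale, which understates changes at such levels. In NSE4 cells the ABCA1 call was lost without any of the 4 NSE4 and NSE4-DOX libraries (0.102 to 0.141), without GFP-DOX replicate 1 or 2 (0.0525 and 0.0524) and without SMC5 replicate 1 or 2 (0.0641 for each), and in SMC5 cells without SMC5 replicate 1 (0.0704) or 2 (0.0603). In NSE4 cells it was also lost with median-ratio scaling, quantile normalization, a pseudocount of 0.1, no filter or the compared groups alone (0.0535 to 0.103).

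STARD4, a soluble carrier that moves sterol between membranes, fell: it averaged 34.3 ± 3.74 FPKM in GFP-DOX cells and 59.7 ± 3.75 FPKM in GFP cells (SD, n = 2 each). The STARD4 log2 change was −0.78 in GFP cells, −0.62 in NSE4 cells and −0.54 in SMC5 cells (SE 0.115 to 0.141, adjusted p 0.00306 to 0.0340). The SMC5 call was lost without SMC5 replicate 1 (0.114), GFP replicate 1 or 2 (0.0510 and 0.0511), or NSE4-DOX replicate 1 or 2 (0.0546 and 0.0545), and with either other scaling (0.0542 and 0.0667) or no filter (0.0570).

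**Figure D3:**
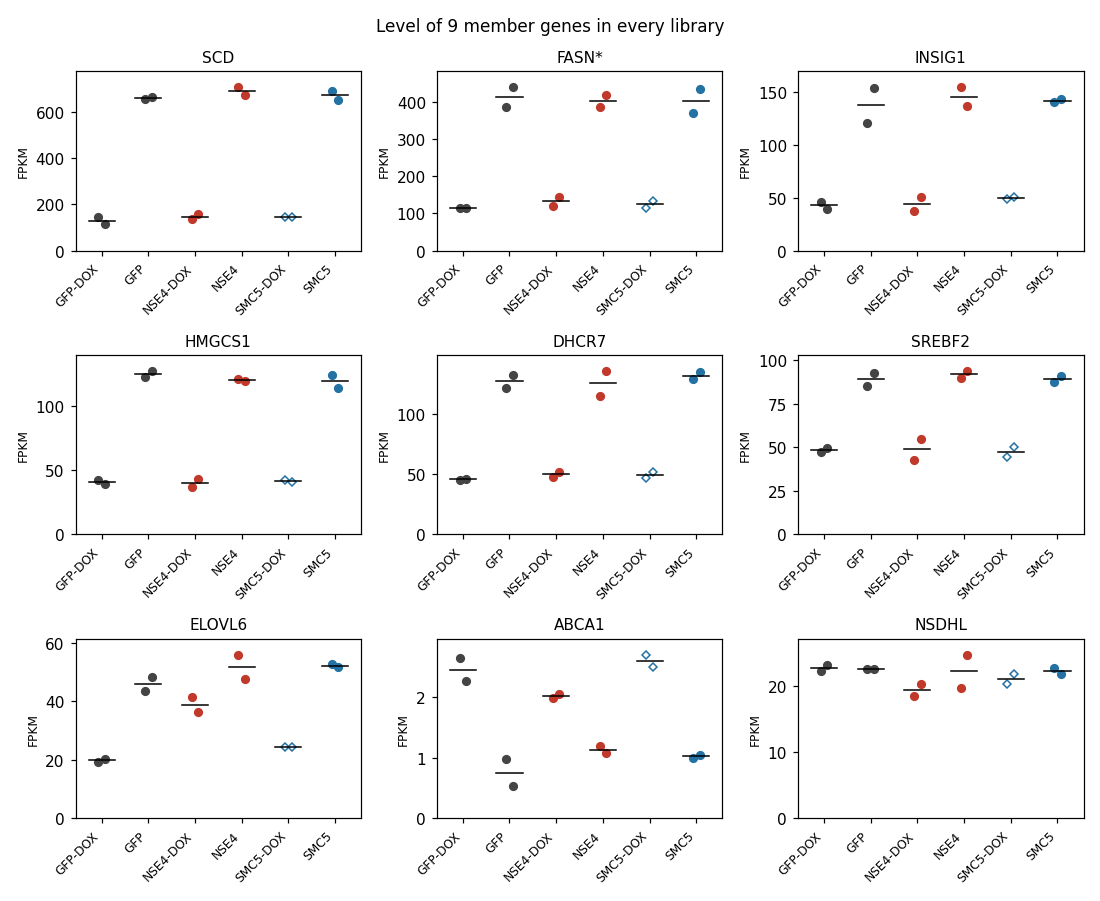
FPKM (vertical axes, linear from 0) of 9 member genes in every library; points are libraries, diamonds are the 2 near-identical SMC5-DOX columns counted as 1 sample, and bars are group means. SCD lies between 117 and 157 FPKM with doxorubicin and between 652 and 704 FPKM with PBS, ABCA1 is higher with doxorubicin, NSDHL overlaps, and ELOVL6 in NSE4-DOX (41.4 and 36.2 FPKM) lies above the other doxorubicin groups.

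Of the 9 fatty acid loci 6 fell in each background, and 2 rose in GFP cells and 1 in NSE4 and in SMC5 cells. Over all loci tested 13.8% fell and 16.9% rose in GFP cells, 13.9% and 16.5% in NSE4 cells, and 9.89% and 12.1% in SMC5 cells. With 9 loci, the counts that rose cannot be told apart from these shares. SCD, which puts the double bond into stearate and palmitate, showed the largest change of any member in each background. It had 144 and 117 FPKM in GFP-DOX cells, against 653 and 663 FPKM in GFP cells. SCD stood at 136 and 157 FPKM in NSE4-DOX cells, against 704 and 671 FPKM in NSE4 cells. SCD values were 146 and 147 FPKM in SMC5-DOX cells, against 690 and 652 FPKM in SMC5 cells. About 1 in 5 of the PBS level remained, 19.8% in GFP cells, 21.3% in NSE4 cells and 21.8% in SMC5 cells, and the log2 change was −2.34 in GFP cells, −2.23 in NSE4 cells and −2.19 in SMC5 cells (SE 0.113 to 0.139, adjusted p 9.15e-05 to 0.000236). The FASN locus, which holds the synthase of palmitate and also CCDC57, had 114 and 115 FPKM in GFP-DOX cells, against 385 and 438 FPKM in GFP cells. FASN stood at 119 and 145 FPKM in NSE4-DOX cells, against 386 and 417 FPKM in NSE4 cells. FASN values were 116 and 133 FPKM in SMC5-DOX cells, against 370 and 434 FPKM in SMC5 cells. The FASN groups did not overlap either, with a log2 change of −1.83 in GFP cells, −1.60 in NSE4 cells and −1.68 in SMC5 cells (SE 0.123 to 0.151, adjusted p 0.000190 to 0.000759).

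The enzymes that feed FASN behaved differently from each other. ACSS2, which makes acetyl-CoA from acetate, averaged 20.8 ± 2.29 FPKM in GFP-DOX cells and 55.1 ± 9.80 FPKM in GFP cells (SD, n = 2 each). The ACSS2 log2 change was −1.35 in GFP cells, −1.59 in NSE4 cells and −1.44 in SMC5 cells (SE 0.139 to 0.170, adjusted p 0.000436 to 0.00204). ACACA, which makes malonyl-CoA, averaged 21.9 ± 2.95 FPKM in GFP-DOX cells and 44.5 ± 1.76 FPKM in GFP cells (SD, n = 2 each). The ACACA log2 change was −0.99 in GFP cells, −0.75 in NSE4 cells and −0.70 in SMC5 cells (SE 0.105 to 0.129, adjusted p 0.000883 to 0.0106). ACLY, which makes acetyl-CoA from citrate, had 107 to 121 FPKM with doxorubicin and 91.8 to 104 FPKM with PBS. The ACLY groups did not overlap, but its log2 change of 0.18, 0.16 and 0.25 in GFP, NSE4 and SMC5 cells was not called (adjusted p = 0.144, 0.183 and 0.122, limma). LPIN1, a phosphatidate phosphatase of glycerolipid synthesis, averaged 7.93 ± 0.130 FPKM in GFP-DOX cells and 15.7 ± 1.62 FPKM in GFP cells (SD, n = 2 each). The LPIN1 log2 change was −0.90 in GFP cells, −0.79 in NSE4 cells and −0.51 in SMC5 cells (SE 0.110 to 0.135, adjusted p 0.00148 to 0.0359). The LPIN1 call in SMC5 cells was lost without SMC5 replicate 1 (0.104) or 2 (0.102), GFP-DOX replicate 1 or 2 (0.0543 and 0.0542), or NSE4 replicate 1 or 2 (0.0521 and 0.0520).

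Of the desaturases of polyunsaturated fatty acids, the FADS2 locus rose in all 3 backgrounds and FADS1 in GFP cells. The FADS2 locus, joined with FEN1, a flap endonuclease of DNA replication and repair, had 93.7 and 111 FPKM in GFP-DOX cells, against 38.6 and 37.1 FPKM in GFP cells. FADS2 stood at 91.0 and 105 FPKM in NSE4-DOX cells, against 26.3 and 53.0 FPKM in NSE4 cells. FADS2 values were 92.2 and 106 FPKM in SMC5-DOX cells, against 33.7 and 39.7 FPKM in SMC5 cells. All doxorubicin values were above all PBS values, and the log2 change was 1.41 in GFP cells, 1.37 in NSE4 cells and 1.41 in SMC5 cells (SE 0.287 to 0.351, adjusted p 0.0108 to 0.0299). FADS1, the neighbouring desaturase gene, was at 41.5 to 48.9 FPKM with doxorubicin and 31.8 to 39.6 FPKM with PBS, without overlap. Its log2 change passed at 0.40 in GFP cells (SE 0.123, adjusted p = 0.0456), and was 0.37 in NSE4 cells and 0.40 in SMC5 cells (adjusted p = 0.0588 and 0.1002). The FADS1 call was lost without any of the 4 GFP and GFP-DOX libraries (0.0862 to 0.182), without NSE4 replicate 1 or 2 (0.0652 and 0.0651), and with quantile normalization (0.0589), the no-filter fit (0.0832) or a replicate block (0.0508). The FADS2 call was lost in GFP cells without GFP replicate 2 (0.0556) or GFP-DOX replicate 2 (0.0643), in NSE4 cells without NSE4-DOX replicate 2 (0.0686) or with the compared groups alone (0.0948), and in SMC5 cells without SMC5 replicate 1 (0.107) or 2 (0.0698), without GFP replicate 1 or 2 (0.0511 and 0.0512), and with no filter (0.0655).

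Between plasmids at the same treatment, 1 of the 36 loci was called in any comparison. Without doxorubicin 0 of 36 loci were called in NSE4 against GFP cells in limma, where 0.0374% of all loci were, and 0 in SMC5 against GFP cells, where 0% were. At an unadjusted p under 0.05 the counts were 0 of 36 loci for both, against 497 and 505 of 16026 loci. The member differences ran from −0.11 to 0.30 log2 units in NSE4 cells and from −0.19 to 0.33 in SMC5 cells. With doxorubicin 0 loci were called in SMC5-DOX against GFP-DOX cells, where 0.53% of all loci were, and 1 passed an unadjusted 0.05, against 642 of 16026. That 1 was LPIN1, at 0.32 log2 units (adjusted p = 1.0). In NSE4-DOX against GFP-DOX cells 1 of 36 loci was called, where 0.119% of all loci were. These comparisons share the GFP or GFP-DOX libraries.

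The called locus was ELOVL6, the elongase that takes palmitate to stearate. It had 41.4 and 36.2 FPKM in NSE4-DOX cells, 24.3 and 24.3 FPKM in SMC5-DOX cells and 19.2 and 20.4 FPKM in GFP-DOX cells. Without doxorubicin it had 56.0 and 47.7 FPKM in NSE4 cells, 52.8 and 51.8 FPKM in SMC5 cells and 43.5 and 48.2 FPKM in GFP cells. With doxorubicin both NSE4-DOX libraries stood above every other doxorubicin library, and without it the NSE4 and GFP values overlapped. The difference of NSE4-DOX from GFP-DOX was 0.93 log2 units (SE 0.108, 95% interval 0.68 to 1.19, adjusted p = 0.0430, limma), and that of NSE4 from GFP was 0.17. The ELOVL6 change with doxorubicin was −0.41 in NSE4 cells (SE 0.108, adjusted p = 0.0290), −1.07 in SMC5 cells (SE 0.133, adjusted p = 0.00250) and −1.17 in GFP cells (SE 0.108, adjusted p = 0.000553). Of the PBS level 74.9% remained in NSE4 cells, 46.5% in SMC5 cells and 43.2% in GFP cells. The interaction for NSE4 was 0.76 log2 units (95% interval 0.40 to 1.12) and did not pass after adjustment (adjusted p = 0.624). That for SMC5 was 0.10 (95% interval −0.31 to 0.50).

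The call of ELOVL6 between the plasmids was lost without GFP replicate 1 or 2 (adjusted p = 0.0988 and 0.0987), GFP-DOX replicate 1 or 2 (0.252 and 0.187), NSE4 replicate 1 or 2 (0.0626 and 0.0620), NSE4-DOX replicate 1 or 2 (0.221 and 0.0889), or SMC5 replicate 1 or 2 (0.139 for each), and its log2 difference stayed between 0.84 and 1.03. It was also lost with median-ratio scaling (0.122), quantile normalization (0.1635), a minimum of 5 FPKM (0.0538), the compared groups alone (0.547) and a replicate block (0.09165). The fall of ELOVL6 with doxorubicin in NSE4 cells was lost without NSE4 replicate 1 (0.132) or NSE4-DOX replicate 2 (0.137), with quantile normalization (0.0549), with no filter (0.0511) and with the compared groups alone (0.118).

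**Figure D4:**
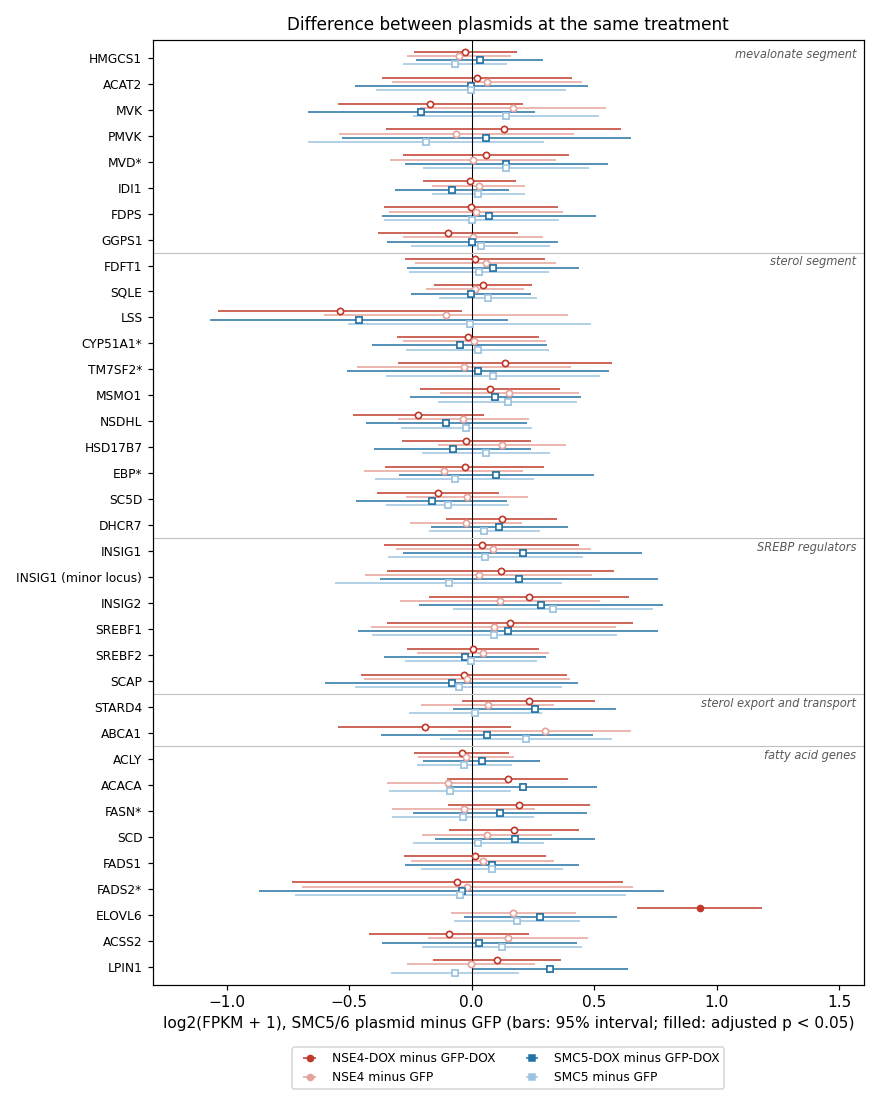
Difference of NSE4 and SMC5 cells from GFP cells at the same treatment for the 36 loci, in log2(FPKM + 1) with 95% intervals (horizontal axis); dark symbols are with doxorubicin, pale symbols with PBS, and the filled symbol passed an adjusted p of 0.05. ELOVL6 in NSE4-DOX (0.93) is the one filled symbol, and among the other points the intervals of LSS in NSE4-DOX and LPIN1 in SMC5-DOX exclude 0.

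The other interactions were also tested. For the change with doxorubicin in NSE4 against GFP cells 0 of 36 loci were called, where 0.0437% of all loci were, and at an unadjusted p under 0.05 there was 1 (ELOVL6), against 493 of all loci. In SMC5 against GFP cells 0 of 36 were called, where 0.412% of all loci were, and 0 had an unadjusted p under 0.05, against 590 of all loci. Apart from ELOVL6, the largest gap between the NSE4 and GFP changes was 0.49 log2 units, at ABCA1, and between the SMC5 and GFP changes 0.45, at LSS. LSS was also the other locus with an unadjusted p under 0.05 between NSE4-DOX and GFP-DOX cells (−0.54 log2 units, 95% interval −1.03 to −0.04, adjusted p = 1.0).

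Other genes of the pathway, in lists drawn up for this comparison, were measured too. Their counts stand against the shares over all loci, 16.9% that rose and 13.8% that fell in GFP cells, 16.5% and 13.9% in NSE4 cells, and 12.1% and 9.89% in SMC5 cells. Of 12 loci of isoprenoid use beyond farnesyl diphosphate (prenylation, dolichol, ubiquinone), 2 rose and 2 fell in GFP cells, 2 and 2 in NSE4 cells, and 1 and 1 in SMC5 cells, with medians of −0.04, 0.00 and −0.06. The RABGGTB locus, which fell, also names ACADM and is counted again among the fatty acid oxidation genes described at the end. The DHDDS locus, which rose, is joined with HMGN2. Of 11 loci for SREBP processing and sterol-regulated degradation, 2 fell and 0 rose in GFP cells, 2 fell and 1 rose in NSE4 cells, and 1 fell and 0 rose in SMC5 cells, with medians of 0.03, −0.02 and −0.07. SEC23A, a coat protein of the vesicles that leave the endoplasmic reticulum, averaged 14.4 ± 0.780 FPKM in GFP-DOX cells and 25.6 ± 0.290 FPKM in GFP cells (SD, n = 2 each; log2 change −0.79, SE 0.0829, adjusted p = 0.000854), and fell by 1.01 in NSE4 cells and 0.90 in SMC5 cells on the log2 scale. The MBTPS2 locus holds the site-2 protease that frees SREBP, and also YY2. It averaged 7.68 ± 0.189 FPKM in GFP-DOX cells and 9.82 ± 0.111 FPKM in GFP cells (SD, n = 2 each), with a log2 change of −0.32 (SE 0.0929, adjusted p = 0.0388, limma). Its log2 change was −0.40 in NSE4 cells (adjusted p = 0.01835, limma), and that in SMC5 cells was not called (−0.22, adjusted p = 0.2053, limma).

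Of 12 loci for sterol transport, esterification and LXR, 1 rose and 2 fell in GFP cells, 1 and 2 in NSE4 cells, and 0 and 1 in SMC5 cells, with medians of 0.01, −0.15 and −0.17. GRAMD1A, which carries cholesterol from the plasma membrane to the endoplasmic reticulum, averaged 27.5 ± 0.391 FPKM in GFP-DOX cells and 41.3 ± 5.06 FPKM in GFP cells (SD, n = 2 each; log2 change −0.56, SE 0.106, adjusted p = 0.00800). SOAT1, the cholesterol acyltransferase, averaged 16.3 ± 0.512 FPKM in GFP-DOX cells and 12.3 ± 0.829 FPKM in GFP cells (SD, n = 2 each; log2 change 0.39, SE 0.103, adjusted p = 0.0286), and its change in SMC5 cells was not called (0.39, adjusted p = 0.0694). Of 20 loci for fatty acid elongation, activation and glycerolipid synthesis, 5 rose and 7 fell in GFP cells, 4 and 7 in NSE4 cells, and 5 and 6 in SMC5 cells, with medians of −0.19, −0.13 and −0.00. ME1, which supplies NADPH for lipogenesis, averaged 5.10 ± 0.314 FPKM in GFP-DOX cells and 13.4 ± 0.959 FPKM in GFP cells (SD, n = 2 each; log2 change −1.24, SE 0.0963, adjusted p = 0.000307), and fell by 1.09 in NSE4 cells and 1.32 in SMC5 cells. The DGAT1 locus (triglyceride synthesis, joined with SCRT1) averaged 123 ± 16.5 FPKM in GFP-DOX cells and 43.4 ± 0.258 FPKM in GFP cells (SD, n = 2 each; log2 change 1.48, SE 0.125, adjusted p = 0.000415), and that of ACSL4 (activation of polyunsaturated fatty acids, joined with KCNE5) averaged 12.2 ± 0.791 FPKM in GFP-DOX cells and 26.8 ± 0.0976 FPKM in GFP cells (SD, n = 2 each; log2 change −1.08, SE 0.1001, adjusted p = 0.000559).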

How the data were processed

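The data are 12 mRNA-sequencing libraries, 2 in each of 6 groups of HCT116 cells. The authors deposited 1 table of FPKM values for 57908 loci, made with TopHat and Cufflinks, per the submitters' processing notes; versions, filters and the genome build are not given in the sources used here. The unit follows from the table's own gene-level layout and those tools, and the depth of 13.3 to 19.3 M (1e6) fragments was estimated from the spacing of low values in transcripts of at least 1500 bases.

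Values were tested as log2(FPKM + 1) in limma 3.58.1 (R 4.3.3) with an intensity trend, all 6 groups in 1 fit of 11 samples (the 2 near-identical SMC5-DOX columns averaged), 5 residual degrees of freedom and Benjamini-Hochberg adjustment within each of 9 comparisons, over the 16026 loci with at least 1 FPKM in at least 2 columns. A pseudocount of 1 understates the change of low genes. The fit was tested on simulated data. All 35 members are accounted for, and those of largest change in each role are given library by library. From the other gene lists up to 3 called loci of smallest p in GFP cells were eligible to be named; some are not reported here. The members, the other gene lists, the tests and the alternatives were chosen with earlier results of these data known, and the core promoter motif was added after the longer one was searched. Alternatives were 2 other scalings, 2 filters, another pseudocount, 12 separate columns, a replicate block, a fit of the compared groups alone, and leaving out each library in turn. Promoter sequences came from RefSeq (GRCh38.p14); 38 of 46 continued into a transcript of the same gene in GENCODE 29. Tables were made in Python 3.11.15 with numpy 2.4.6 and pandas 2.3.3, and figures with matplotlib 3.10.9.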

Additional observations from a re-analysis of the deposited data

How the results depend on the processing

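The counts of called members with doxorubicin were 26 of 36 loci in GFP cells, 24 in NSE4 cells and 23 in SMC5 cells. Of all 16026 loci tested, 4925, 4872 and 3519 were called in either direction, in the same order. The member counts stayed within 1.5 times under every alternative, with 1 exception. A fit of the SMC5-DOX and SMC5 libraries alone, which has few residual degrees of freedom, made no call at any of the loci tested. Over the 74 calls of single loci and their alternatives 1347 of 1477 values kept direction and call, 130 kept direction and lost the call, and 0 reversed. The 1 member called in NSE4-DOX against GFP-DOX cells, ELOVL6, became 0 with quantile normalization, with median-ratio scaling, with a minimum of 5 FPKM, with the compared groups alone and with a replicate block, and lay between 0 and 1 when a library was left out; the cause was not tested. The labels do not say whether replicate numbers pair the libraries, so the numbers were not used as pairs in the main fit. Each transfected culture was divided, so a doxorubicin and a PBS library may be paired, and the main fit leaves that out. Correlations of replicate differences between groups ran from −0.1453 to 0.3057. The highest was between SMC5 and SMC5-DOX, and the 2 SMC5-DOX columns are near-identical. Replicate 2 lay above replicate 1 in all 5 groups of 2 samples at 12 of the 36 loci, and below it in all 5 at 0 loci. That order was counted for the members only, so it cannot be called particular to them. With the replicate block 27, 26 and 26 members were called with doxorubicin in GFP, NSE4 and SMC5 cells. Over all 16026 loci 5916, 5844 and 4622 were called, in the same order. Restricted to the 30 loci with 1 coding gene, a choice made after seeing the data, the counts were 22, 21 and 20. That restriction was applied to the members only, so the counts over all loci stayed at 4925, 4872 and 3519 of 16026. A size of 2 libraries per group limits the precision of every value.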

Other observations

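Genes of fatty acid breakdown were examined beside those of synthesis. Of 15 listed genes of mitochondrial and peroxisomal oxidation 14 had a locus that passed the filter, and with doxorubicin 4 of these rose and 2 fell in GFP cells, 3 rose and 3 fell in NSE4 cells, and 3 rose and 2 fell in SMC5 cells, with median log2 changes of 0.12, 0.07 and 0.05. Over all loci 16.9% rose and 13.8% fell in GFP cells, 16.5% and 13.9% in NSE4 cells, and 12.1% and 9.89% in SMC5 cells. CPT2, which releases fatty acids from carnitine inside mitochondria, averaged 15.8 ± 1.80 FPKM in GFP-DOX cells and 6.12 ± 0.250 FPKM in GFP cells (SD, n = 2 each; log2 change 1.23, SE 0.104, adjusted p = 0.000415). CPT2 was also called in NSE4 cells, at 0.99 on the log2 scale, and in SMC5 cells, at 1.02. The locus of ACADM, a medium-chain dehydrogenase, is shared with RABGGTB and other genes, and it averaged 81.7 ± 6.54 FPKM in GFP-DOX cells and 128 ± 3.48 FPKM in GFP cells (SD, n = 2 each; log2 change −0.65, SE 0.0718, adjusted p = 0.00105).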
